A study of Mus musculus with 8 samples.

Results

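Collagen chains and the proteins that fold, modify, cut and cross-link them were examined across 8 RNA sequencing libraries of mouse neural progenitor cells. The genes were those whose symbol has the form of a collagen chain (Col, a type number, a, a chain number), plus 13 named processing genes: the chaperone gene Serpinh1, the hydroxylase genes P4ha2, P4ha3, Leprel1, Plod1, Plod2 and Plod3, the cross-linking enzyme genes Lox, Loxl1, Loxl2 and Loxl3, and the propeptide cleavage genes Bmp1 and Pcolce. They numbered 57 of the 20793 rows of the table, 44 collagen chains and 13 processing genes. The cells were brain neural progenitors of the strain FvB/C57BL/6, infected with lentiviral hairpins and selected with puromycin for 3 days. Differentiating cells spent 5 days in neurobasal medium supplemented with B27, and proliferating cells stayed in N2 medium with EGF and bFGF at 20 ng/ml. The differentiating libraries were FUBP1-D (targeted at FUBP1), CIC-D (targeted at CIC), and the non-targeted (NT) libraries named 7 and GFP-D, and the proliferating ones were FUBP1, CIC, and the NT libraries TRC and GFP. There was thus 1 library for each targeted gene and state and 2 NT libraries per state, the labels do not say that the NT libraries came from separate cultures, and p-values reflect only how far these libraries scatter, possibly for technical reasons. The labels give neither the hairpin sequences nor the number of hairpins per gene.

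Procollagen chains are made in the endoplasmic reticulum, where prolyl hydroxylases stabilise the triple helix, lysyl hydroxylases prepare cross-links and sugar attachment, and HSP47, the product of Serpinh1, binds the folded helix. After secretion the BMP1 proteinase removes the carboxyl propeptide of fibrillar procollagens, helped by the enhancer PCOLCE, and lysyl oxidases start the covalent cross-links. In the brain, fibrillar collagens belong mainly to the meninges and vessel walls, and type IV collagen builds the basement membranes under the pia and around vessels. CIC (capicua) is a transcriptional repressor, and FUBP1 binds single-stranded DNA and RNA and regulates MYC among other genes.

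Within each state, Serpinh1 and Col6a1 were lowest in the library targeted at CIC. The head-to-head neighbours Col4a5 and Col4a6 were the most abundant chains in the differentiating libraries. The stretch upstream of the gene start was read for these 4 genes, on which the results turn most. Each is the 250 bases before the RefSeq start in GRCm38.p6, 5′ to 3′ on the gene's own strand, with capitals marking GC boxes (GGGCGG) and heat shock element cores (GAANNTTC) found on either strand. The windows lie at chr7:99353240-99353489 (minus strand) for Serpinh1, chr10:76726045-76726294 (minus) for Col6a1, chrX:141475169-141475418 (plus) for Col4a5 and chrX:141474077-141474326 (minus) for Col4a6.
Serpinh1: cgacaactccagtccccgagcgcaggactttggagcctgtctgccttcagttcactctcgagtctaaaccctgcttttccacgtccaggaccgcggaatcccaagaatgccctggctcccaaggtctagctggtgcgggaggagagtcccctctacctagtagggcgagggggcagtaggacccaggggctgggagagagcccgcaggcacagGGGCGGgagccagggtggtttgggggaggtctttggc
Col6a1: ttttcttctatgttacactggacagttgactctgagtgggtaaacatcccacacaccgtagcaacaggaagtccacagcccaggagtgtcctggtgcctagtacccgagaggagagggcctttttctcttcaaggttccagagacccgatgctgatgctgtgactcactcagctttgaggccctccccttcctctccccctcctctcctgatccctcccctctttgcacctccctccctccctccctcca
Col4a5: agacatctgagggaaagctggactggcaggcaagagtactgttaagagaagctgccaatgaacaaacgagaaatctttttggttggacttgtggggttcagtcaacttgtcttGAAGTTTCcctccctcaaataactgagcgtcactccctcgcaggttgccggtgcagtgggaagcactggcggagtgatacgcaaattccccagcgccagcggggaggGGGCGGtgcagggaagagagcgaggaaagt
Col4a6: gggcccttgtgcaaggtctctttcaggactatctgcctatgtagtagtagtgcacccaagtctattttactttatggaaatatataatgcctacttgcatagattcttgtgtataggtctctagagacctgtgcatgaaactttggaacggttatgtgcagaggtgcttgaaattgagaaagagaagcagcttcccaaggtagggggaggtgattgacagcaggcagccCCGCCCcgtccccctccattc
The CIC octamer, searched as TGAATGAA and TCAATGAA on both strands, was in none of these 4 windows and in 0 of the 41 members with a window of this length, against 1.70% of all 32851 windows. The GC box was in 26 of the 41 members, Serpinh1, Col4a5 and Col4a6 among them, against 32.7% of all windows, and the heat shock core was in Col4a5 alone, against 6.69% of all windows. Members were counted by gene symbol and the shares by window, so a count and its share are not in the same unit. These are matches of letters in the windows and not measured binding.

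Levels are the authors' FPKM, read fragments scaled to transcript length and to the size of the library, so that genes can be compared within a library. The files hold no fragment counts, so depth is unknown. Summed over all rows, FPKM ran from 426984 (FUBP1-D) to 541608 (GFP). Progenitor markers were abundant (Sox2 between 116 and 480 FPKM, Vim between 1666 and 3842), whereas 5 of 5 endothelial and 5 of 5 microglial markers stayed under 1 FPKM in every library. Of 10 fibroblast and mesenchyme markers, Lum, Postn and Acta2 stayed under 1 FPKM in every library, and Prrx1 (up to 127), Fbln2 and Pdgfra were the highest. The library GFP, labelled non-targeted, held the lowest Fubp1 level of all (12.4 FPKM, against 34.8 in the library labelled FUBP1), so directions for FUBP1 are those of the labels. Fubp1 was at 50.2 FPKM in TRC. In the differentiating state it was at 21.6 FPKM in FUBP1-D, against 24.8 in 7 and 25.4 in GFP-D. Cic was at 25.6 FPKM in CIC-D, against 42.0 in 7 and 35.3 in GFP-D, and at 13.3 FPKM in CIC, against 39.4 in TRC and 33.8 in GFP. In bulk libraries such as these, fewer cells of a type and less RNA per cell cannot be told apart.

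Many collagen genes were silent or nearly so, and a few chains carried most of the collagen message. Of the 57 members, 23 stayed under 1 FPKM in every library, and 30 (20 chains and 10 processing genes) reached 1 FPKM in at least 2 libraries, the filter used for the tests. Both chains of type I collagen, the main collagen of skin, bone and tendon, were near 0, with Col1a1 at most 0.901 FPKM and Col1a2 at most 0.0244 FPKM. Col3a1, which accompanies type I collagen, did not exceed 1.29 FPKM, and Col2a1 of cartilage did not exceed 0.142 FPKM. The cross-linking enzymes Lox and Loxl1 were at most 0.0288 and 0.0136 FPKM, and Col6a6 was listed at 0 throughout.

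Col4a5 and Col4a6, minor chains of type IV collagen in most tissues, together gave 62.5%, 60.3%, 68.2% and 54.6% of the summed FPKM of all collagen chains in FUBP1-D, CIC-D, 7 and GFP-D, and 37.8%, 52.7%, 31.6% and 47.2% in FUBP1, CIC, TRC and GFP. The chain gene Col18a1, whose product is a basement membrane proteoglycan with the antiangiogenic fragment endostatin, gave between 5.5% and 19.6% in the differentiating libraries and between 7.6% and 43.2% in the proliferating ones. The next chains were Col5a1, Col5a2, Col6a1 and Col16a1. Among the processing genes, the lysyl hydroxylase genes were expressed in every library, Plod1 between 23.7 and 95.9 FPKM, Plod2 between 25.9 and 75.6, and Plod3 between 26.1 and 46.1. The heat map of members by library shows these levels side by side.

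**Figure D1:**
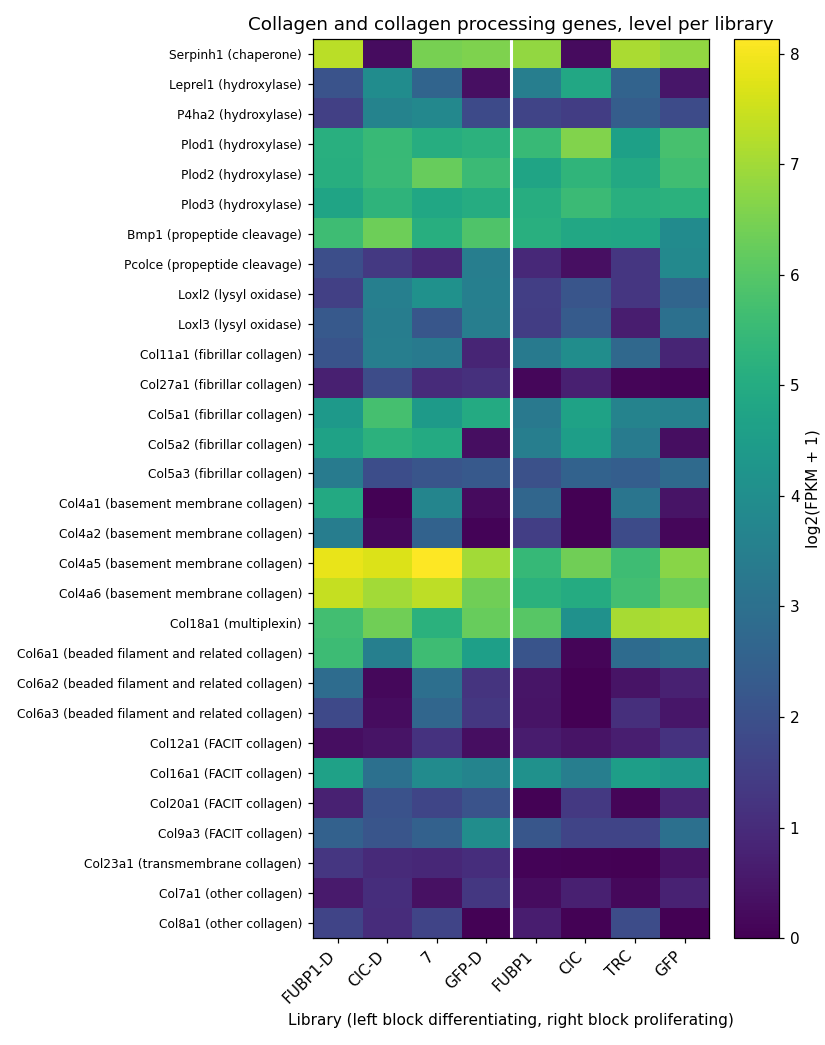
Level of the 30 tested members in each library as log2(FPKM + 1), rows ordered by role, with the 4 differentiating libraries left of the white line and the 4 proliferating ones right of it. Serpinh1 is dark in CIC-D and CIC and bright elsewhere (at least 88.2 FPKM), Col5a2 is dark in GFP-D and GFP, and Col4a5 and Col4a6 are brightest in the differentiating block.

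Serpinh1 was nearly absent from both libraries targeted at CIC, whereas the lysyl hydroxylase genes Plod1, Plod2 and Plod3 were at 37.8 FPKM or more there. Serpinh1 (chromosome 7, 106493885 to 106501749, mm9) was at 0.207 FPKM in CIC-D, against 88.2 in 7 and 93.5 in GFP-D, and at 0.172 FPKM in CIC, against 137 in TRC and 113 in GFP. FUBP1-D and FUBP1 held 157 and 111 FPKM. The 2 CIC libraries lay far below every other library, with no overlap, and their mean was 0.176% of the NT mean. The fitted difference was -6.49 on log2(FPKM + 1) (SE 0.25, limma adjusted p = 1.6e-04), and it was called under all 16 alternatives, with adjusted p between 3.0e-05 and 0.0153. Since the pseudocount of 1 FPKM limits a fold from so low a level, the value ran from -4.42 with a pseudocount of 5 FPKM to -8.52 with 0.1 FPKM.

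Serpinh1 was the only 1 of the 30 tested members called between the CIC and NT libraries, where 0.109% of all 11968 rows were called, 0.0919% lower and 0.0167% higher. The median difference of the members was -0.13, beside -0.04 over all rows. Of 31 tested genes in a list of other collagen pathway genes, 1 fell and 0 rose. This was Mmp14, a membrane metalloproteinase that cleaves fibrillar collagen, at 0.0855 FPKM in CIC-D, against 46.3 in 7 and 34.5 in GFP-D, and at 0.0132 FPKM in CIC, against 81.3 in TRC and 31.7 in GFP (log2 difference -5.46, SE 0.48, limma adjusted p = 0.0157). Fkbp10 (chosen after its values were seen) encodes a further chaperone of procollagen. It was at 0.255 FPKM in CIC-D, against 5.88 in 7 and 33.7 in GFP-D, and at 0.0392 FPKM in CIC, against 3.07 in TRC and 28.3 in GFP, but the NT libraries themselves were spread widely and the difference of -3.51 (SE 0.94) did not pass the test (limma adjusted p = 0.284). P4hb, Crtap, Lepre1 and Ppib, which build the prolyl hydroxylase complexes, were present in every library, the lowest at 10.1 FPKM (Lepre1 in FUBP1-D).

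The expressed genes next to Serpinh1 on chromosome 7 were still read in both CIC libraries. Map6, a microtubule-stabilising protein gene on its lower-coordinate side, was at 26.7 FPKM in CIC-D, against 22.0 in 7 and 46.2 in GFP-D, and at 5.67 FPKM in CIC, against 17.9 in TRC and 29.7 in GFP. Gdpd5 on the other side was at 38.1 FPKM in CIC-D, against 18.0 in 7 and 91.5 in GFP-D, and at 2.42 FPKM in CIC, against 2.71 in TRC and 12.5 in GFP. In CIC-D both genes lay between the 2 NT libraries, and in CIC both lay below them. Dgat2 and the ribosomal protein gene Rps3 were also present in both CIC libraries, and Mogat2 and Klhl35 were near 0 in every library.

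**Figure D2:**
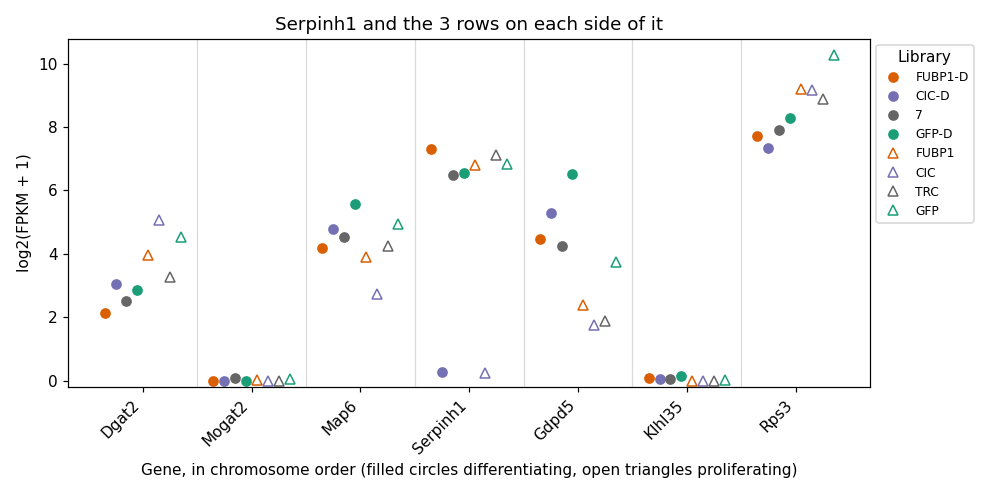
Level of Serpinh1 and of the 3 table rows on each side of it, in chromosome order, as log2(FPKM + 1), 1 point per library. The 2 CIC points (purple) of Serpinh1 sit near 0 (0.207 and 0.172 FPKM), whereas those of Map6 and Gdpd5 do not.

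Several collagen chains lay outside the NT libraries in the CIC libraries without passing the test. Type VI collagen, a beaded filament collagen at cell surfaces, was low: Col6a1 was at 10.5 FPKM in CIC-D, against 48.2 in 7 and 23.2 in GFP-D, and at 0.0823 FPKM in CIC, against 6.22 in TRC and 7.57 in GFP (log2 difference -2.22, SE 0.42, limma adjusted p = 0.152). Col6a2 was at 0.117 FPKM in CIC-D, against 6.93 in 7 and 1.35 in GFP-D, and at 0.00778 FPKM in CIC, against 0.339 in TRC and 0.672 in GFP. Col6a3 was at 0.218 FPKM in CIC-D, against 5.44 in 7 and 1.48 in GFP-D, and at 0.00981 FPKM in CIC, against 1.13 in TRC and 0.393 in GFP (-1.24, SE 0.45, limma adjusted p = 0.383). In both states the CIC library was thus the lowest of its state for all 3 chains. The fibroblast and mesenchyme marker Twist1 was low in the same libraries (0.0345 and 0.0243 FPKM in CIC-D and CIC, against 1.23 to 2.61 in NT). Fbln2 was at 1.497 FPKM in CIC-D, against 12.0 in 7 and 8.79 in GFP-D, and at 9.33 FPKM in CIC, against 34.6 in TRC and 66.9 in GFP. Pdgfra was at 13.9 FPKM in CIC-D, against 27.4 in 7 and 20.0 in GFP-D, and at 5.17 FPKM in CIC, against 28.6 in TRC and 25.9 in GFP. These 3 of the 10 markers were thus low beside type VI collagen, whereas Prrx1 was at 24.3 FPKM in CIC-D, against 25.4 in 7 and 16.7 in GFP-D, and at 127 FPKM in CIC, against 62.0 in TRC and 66.4 in GFP. The summed level of the list, to which Prrx1 gave most in both CIC libraries, was 39.9 FPKM in CIC-D, against 66.8 in 7 and 54.1 in GFP-D, and 142 FPKM in CIC, against 127 in TRC and 164 in GFP. Lum was at 0 in both CIC libraries and in all 4 NT libraries. Low values were not limited to this list. The astrocyte marker Aldh1l1 was at 17.6 FPKM in CIC-D, against 172 in 7 and 47.3 in GFP-D. In CIC it was at 3.28 FPKM, against 89.6 in TRC and 43.7 in GFP. Gfap and Aqp4 were also lower in each CIC library than in both NT libraries of its state, whereas Slc1a3 and S100b were higher. The part of these markers in the result was not tested.

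Leprel1, which encodes prolyl 3-hydroxylase 2, was high in the CIC libraries, at 14.6 FPKM in CIC-D, against 5.15 in 7 and 0.247 in GFP-D, and at 28.1 FPKM in CIC, against 5.07 in TRC and 0.403 in GFP (log2 difference 2.91, SE 0.77, limma adjusted p = 0.276). Col5a1, a chain of type V collagen, was at 52.6 FPKM in CIC-D, against 20.5 in 7 and 30.3 in GFP-D, and at 25.0 FPKM in CIC, against 11.3 in TRC and 10.99 in GFP (1.07, SE 0.22, limma adjusted p = 0.170). For both genes the CIC library was the highest of its state, FUBP1 libraries included. Plod1 (0.87, SE 0.37, limma adjusted p = 0.432), Col27a1 (0.73, SE 0.26, 0.373) and Col16a1 (-0.86, SE 0.29, 0.362) had unadjusted p under 0.05, as did 8 of the 30 members in all and 11.4% of all rows. With library name as a block (FUBP1, CIC, GFP and the other NT libraries, each over both states), Leprel1 (SE 0.34, limma adjusted p = 0.0227) and Col5a2 (2.65, SE 0.34, 0.0313) were called as well, in a fit whose error holds no spread between GFP and the other NT libraries. In CIC alone, 4 members (Col11a1, Col5a1, Col5a2 and Leprel1) lay more than 1 log2 unit above both NT libraries of the state, as did 3.63% of all rows, and 3 (Col18a1, Col6a1 and Serpinh1) lay as far below them, as did 5.65% of all rows. In CIC-D, 1 member (Leprel1) lay above by that margin, as did 1.07% of all rows, and 4 (Col6a1, Col6a2, Col6a3 and Serpinh1) lay below, as did 1.76% of all rows. Of the 30 tested members, 2 (Col6a1 and Serpinh1) lay more than 1 log2 unit below both NT libraries in each state, a position held by 0.844% of all rows, and 1 (Leprel1) lay more than 1 log2 unit above them, as did 0.443% of all rows.

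Col18a1 was the member whose CIC difference varied most between the states. It was at 81.6 FPKM in CIC-D, against 35.6 in 7 and 75.1 in GFP-D, and at 16.4 FPKM in CIC, against 134 in TRC and 143 in GFP. The CIC library was therefore highest among the differentiating libraries and lowest among the proliferating ones. The test of the difference between states gave 3.65 on the log2 scale (SE 0.70, unadjusted p = 0.00278), which did not pass over all rows (limma adjusted p = 0.998). In that limma comparison 0 rows and 0 members were called, and 1 of the 30 members had an unadjusted p under 0.05, as did 4.28% of all rows.

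**Figure D3:**
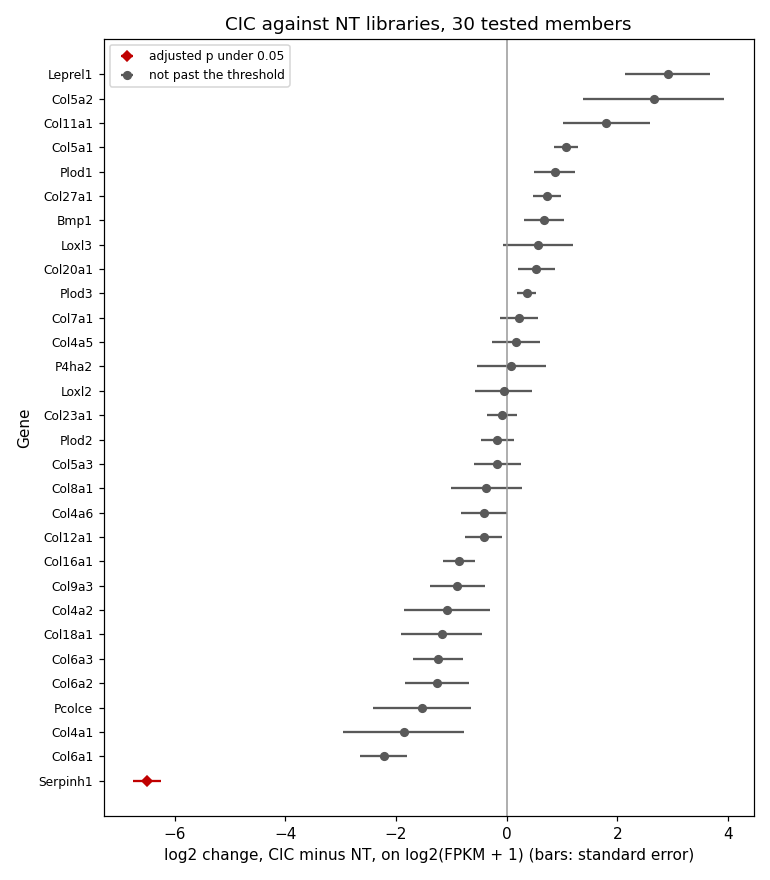
Fitted difference of the CIC libraries from the NT libraries for the 30 tested members on the log2(FPKM + 1) scale, CIC minus NT, from the additive model, with bars for the standard error. Serpinh1 at -6.49 is the only member called (red diamond), and the bars of Col5a2, Col4a1 and Col4a2 are wide.

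On differentiation the members called in the fit to all 8 libraries all rose. Among the 30 tested members 9 rose and 0 fell, 7 of the 20 chains and 2 of the 10 processing genes, where 38.8% of all rows were called, 21.2% higher and 17.7% lower. The median change of the members was 0.67, beside 0.09 over all rows. A member that passed the filter mainly through the differentiating libraries, such as Col23a1 or Col27a1, could appear only as higher there, so the count is a description. Summed levels of marker lists of other cell types moved with the state, but not every marker did. The summed level of 5 astrocyte markers, all of them above 0 in every library, was 574 to 735 FPKM in differentiating libraries, against 119 to 212 in proliferating ones. With 7 set beside TRC, Gfap, Slc1a3, Aqp4 and Aldh1l1 were higher in each differentiating library than in its proliferating counterpart. Aldh1l1 was close in GFP-D and GFP (47.3 and 43.7 FPKM). S100b was lower in CIC-D than in CIC (2.08 against 9.16 FPKM) and in GFP-D than in GFP (0.188 against 0.403). It was slightly higher in FUBP1-D than in FUBP1 and in 7 than in TRC. The summed level of the 10 fibroblast and mesenchyme markers was 39.9 to 66.8 FPKM in differentiating libraries, against 120 to 164 in proliferating ones, with Lum at 0 in all but FUBP1-D. Paired in the same way, Prrx1 and Fbln2 were lower in each differentiating library. Pdgfra was higher in FUBP1-D (30.7 FPKM, against 22.3 in FUBP1) and in CIC-D (13.9, against 5.17 in CIC). It was lower in 7 than in TRC (27.4 against 28.6) and in GFP-D than in GFP (20.0 against 25.9). Pdgfrb was at 5.59 FPKM in GFP-D, against 0.407 in GFP. The part of these marker lists in the result was not tested.

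Col6a1 changed most. It stood at 47.1, 10.5, 48.2 and 23.2 FPKM in FUBP1-D, CIC-D, 7 and GFP-D, against 3.29, 0.0823, 6.22 and 7.57 in FUBP1, CIC, TRC and GFP, so that every differentiating library lay above every proliferating one (log2 change 2.79, SE 0.34, limma adjusted p = 0.00163). Its partner chains in type VI collagen had the values given above. Their changes of 1.41 (Col6a2, SE 0.48, limma adjusted p = 0.0510) and 1.02 (Col6a3, SE 0.37, 0.0621) missed the threshold. Col6a2 passed without CIC (adjusted p = 0.0416), without CIC-D (0.0415) or without GFP-D (0.0338), and Col6a3 without GFP-D (0.0435). Both also passed with a pseudocount of 0.1 FPKM (0.0274 and 0.0301) and with library name as a block (0.0418 and 0.0208). Col6a2 did not exceed 0.672 FPKM in the proliferating libraries and passed the filter through the differentiating ones alone. It could thus appear only as higher, and its passing settings are a description.

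The abundant basement membrane chains Col4a5 and Col4a6 rose together. Col4a5 (chromosome X, 137909962 to 138123778) stood at 234, 206, 280 and 128 FPKM in FUBP1-D, CIC-D, 7 and GFP-D, against 42.5, 82.1, 48.0 and 101 in FUBP1, CIC, TRC and GFP (log2 change 1.65, SE 0.35, limma adjusted p = 0.0108). Col4a6 (chromosome X, 137599946 to 137908619) stood at 172, 127, 161 and 81.5 FPKM in the differentiating libraries, in the same order, against 35.8, 31.3, 50.2 and 77.5 in the proliferating ones (1.49, SE 0.34, limma adjusted p = 0.0133). Neither gene's states overlapped, but GFP-D and GFP were the closest pair, with log2 differences of 0.33 for Col4a5 and 0.07 for Col4a6. Col4a5 just missed the threshold without FUBP1 or FUBP1-D (adjusted p = 0.0508 and 0.0506), and Col4a6 without FUBP1, FUBP1-D, CIC or CIC-D (0.0605, 0.0603, 0.0561 and 0.0557). The 2 loci lie 1342 bases apart in the table, and the ratio of Col4a5 to Col4a6 ranged from 0.955 (TRC) to 2.63 (CIC).

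Col5a1 was the fibrillar chain with the steadiest call on differentiation, though not the steadiest in level. It stood at 19.5, 52.6, 20.5 and 30.3 FPKM in FUBP1-D, CIC-D, 7 and GFP-D, against 8.75, 25.0, 11.3 and 10.99 in FUBP1, CIC, TRC and GFP, with a log2 change of 1.07 (SE 0.18, limma adjusted p = 0.00404). The groups overlapped, because CIC lay above FUBP1-D and 7, but the differentiating library was higher in each arm. Col5a1 and Col6a1 were called under all 16 alternatives. Col27a1, a fibrillar chain of cartilage, averaged 1.39 ± 0.917 FPKM in differentiating and 0.215 ± 0.287 FPKM in proliferating libraries (SD, n = 4 each). Its change was 0.93 (SE 0.21, limma adjusted p = 0.0126), or 0.85 without CIC or CIC-D (0.0523 and 0.0532). Among the low chains, Col20a1 rose by 1.06 (SE 0.27, limma adjusted p = 0.0194) to 2.32 ± 1.17 FPKM in differentiating libraries, against 0.603 ± 0.712 in proliferating ones, and the transmembrane collagen Col23a1 rose by 0.91 (SE 0.22, 0.0156) to 1.09 ± 0.267 FPKM, against 0.107 ± 0.145. Col20a1 missed the threshold without GFP-D (adjusted p = 0.0512), and Col23a1 without FUBP1, FUBP1-D, CIC or CIC-D (0.0778, 0.0766, 0.0523 and 0.0526). All 3 of these low chains also missed it with quantile normalization (Col27a1 0.0678, Col20a1 0.0852, Col23a1 0.0597) and with group means (0.0601, 0.0788 and 0.0611, in the same order).

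Of the processing genes, the procollagen proteinase gene Bmp1 and the lysyl oxidase-like gene Loxl2 rose. Bmp1 stood at 47.9, 79.3, 33.0 and 58.4 FPKM in FUBP1-D, CIC-D, 7 and GFP-D, against 34.4, 28.3, 27.2 and 14.1 in FUBP1, CIC, TRC and GFP (log2 change 1.04, SE 0.29, limma adjusted p = 0.0273). Only FUBP1 and 7 overlapped, and the call was lost without CIC, CIC-D, GFP or GFP-D (adjusted p = 0.0954, 0.0955, 0.0527 and 0.0715), without both GFP libraries (0.0898), without the filter (0.0536) or with group means (0.0761). Loxl2 stood at 1.90, 10.4, 16.4 and 10.3 FPKM in the differentiating libraries, in the same order, against 1.88, 3.45, 1.43 and 5.27 in the proliferating ones (1.26, SE 0.42, limma adjusted p = 0.0485). FUBP1-D and FUBP1 differed by 0.011 on the log2 scale. The call was lost without any single library other than FUBP1 or FUBP1-D (adjusted p between 0.0542 and 0.126), and also with a pseudocount of 0.1 FPKM (0.0553), no filter (0.101), quantile normalization (0.111), median-of-ratios rescaling (0.0543) or group means (0.107). Serpinh1 itself did not follow the state (-0.09, SE 0.21, limma adjusted p = 0.759), with 157, 88.2 and 93.5 FPKM in FUBP1-D, 7 and GFP-D, against 111, 137 and 113 in FUBP1, TRC and GFP. Plod1 was called lower without TRC (-0.69, adjusted p = 0.0433) and not in the fit to all 8 libraries (-0.39, 0.326), and Loxl3 was called higher without GFP (1.43, 0.0365), without both GFP libraries (1.13, 0.0212) and with library name as a block (0.97, 0.0145), but not in the fit to all 8 libraries with no block (0.97, 0.170).

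The other processing genes had no call between states in the fit to all 8 libraries. P4ha2, a catalytic subunit of prolyl 4-hydroxylase, stood at 1.91, 11.3, 12.9 and 2.58 FPKM in FUBP1-D, CIC-D, 7 and GFP-D, against 2.19, 1.79, 4.23 and 2.61 in FUBP1, CIC, TRC and GFP. It was thus high in CIC-D and 7 alone. Plod2, the lysyl hydroxylase of collagen telopeptides, stood at 33.4, 44.8, 75.6 and 45.9 FPKM in the differentiating libraries, in the same order, against 25.9, 39.0, 29.3 and 48.4 in the proliferating ones (log2 change 0.45, SE 0.24, limma adjusted p = 0.162), and the states overlapped.

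**Figure D4:**
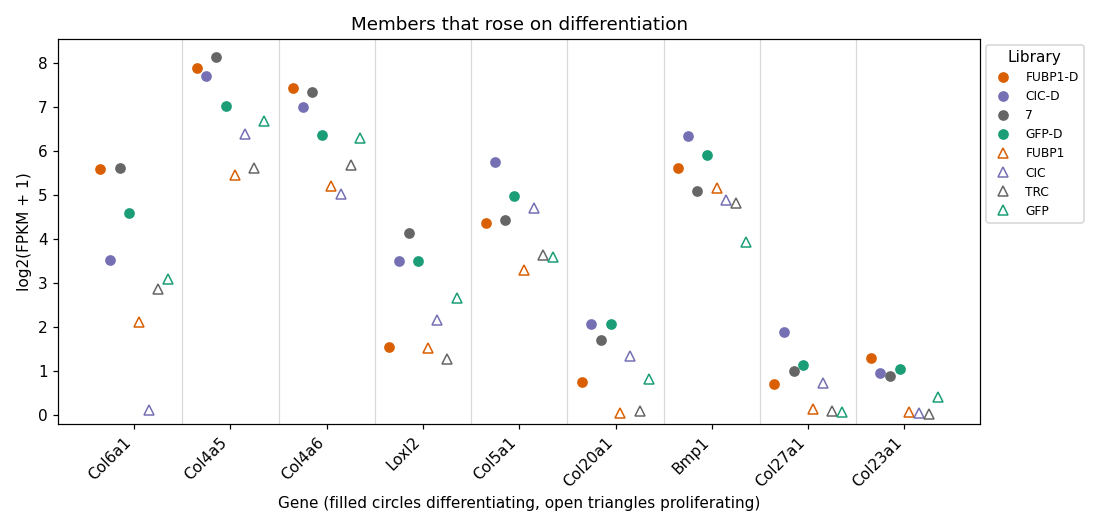
Level of the 9 members that rose on differentiation as log2(FPKM + 1), ordered by fitted change, with 1 point per library (filled circles differentiating, open triangles proliferating). The filled circles lie above the triangles without overlap for Col6a1, Col4a5, Col4a6 and Col23a1, and Loxl2 of FUBP1-D (1.90 FPKM) lies among the triangles. Col23a1 and Col27a1 passed the filter through the differentiating libraries alone.

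In 4 of the 30 members every differentiating library lay above every proliferating one, a position held by 20.1% of all rows, and in 0 members the reverse held, against 17.8% of all rows. Col23a1, 1 of the 4 members, did not exceed 0.323 FPKM in the proliferating libraries. It passed the filter through the differentiating libraries alone, so the reverse could not have held for it. The same was true of Col27a1, Col6a2 and Col7a1, which did not exceed 0.644, 0.672 and 0.730 FPKM in the proliferating libraries. Between the NT libraries of the 2 states alone, with 2 residual degrees of freedom, limma called 0 of the 30 members, where it called 1.46% of all rows (0.577% higher, 0.886% lower), and 8 members had an unadjusted p under 0.05, as did 26.1% of all rows. Among these 8, Col18a1 was lower (log2 change -1.40, SE 0.40) and the others were higher. The smallest adjusted p among members was that of Col6a1 (log2 change 2.13, SE 0.42, adjusted p = 0.0696). Of the 31 other pathway genes tested across all arms, 7 rose and 3 fell, beside 21.2% and 17.7% of all rows. Those that rose were the collagen receptor genes Ddr1 (305 FPKM on average in differentiating libraries) and Itga2, the adhesion receptor gene Gpr56, the transcription factor gene Creb3l1, the prolyl isomerase gene Fkbp14, the secretion coat gene Sec24d and the gelatinase gene Mmp2. Mmp2 did not exceed 0.287 FPKM in the proliferating libraries and passed the filter through the differentiating ones alone. It could thus appear only as higher. Fkbp14 was nearly constant within each state, at 23.4, 23.7, 23.0 and 23.6 FPKM in FUBP1-D, CIC-D, 7 and GFP-D, against 11.3, 11.3, 10.8 and 11.1 in FUBP1, CIC, TRC and GFP (1.01, SE 0.15, limma adjusted p = 0.00282). P4hb, Itgb1 and Pcolce2 fell, with log2 changes of -0.63, -0.54 and -1.39 (limma adjusted p = 0.0229, 0.0449 and 0.0201).

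With the FUBP1 label no member was called. Fubp1 itself was only slightly lower in FUBP1-D than in 7 and GFP-D, and in FUBP1 it lay between TRC and GFP (values above). Limma called 0 of the 30 members and 0% of all 11968 rows, and 1 member, Loxl2, had an unadjusted p under 0.05 (log2 difference -1.36, SE 0.52, adjusted p = 0.999), as did 2.14% of all rows. Loxl2 was at 1.90 FPKM in FUBP1-D, against 16.4 in 7 and 10.3 in GFP-D, and at 1.88 FPKM in FUBP1, against 1.43 in TRC and 5.27 in GFP, so it lay below both NT libraries in the differentiating state alone, by more than 1 log2 unit, as did 0.76% of all rows. Col4a1 and Col5a3 lay more than 1 log2 unit above both NT libraries in FUBP1-D (1.24% of all rows did so), Col4a1 at 29.99 FPKM, against 12.1 in 7 and 0.180 in GFP-D, and Col5a3 at 9.44 FPKM, against 3.46 and 3.79. In the proliferating state Col18a1 lay more than 1 log2 unit below both (0.125% of all rows did so), at 64.2 FPKM in FUBP1, against 134 in TRC and 143 in GFP, and 0 members lay as far above both, against 0.994% of all rows. In both states together 0 members lay above the NT libraries by that margin, against 0.0418% of all rows, and 0 lay below, as did 0% of all rows. The test of a FUBP1 difference between states also gave 0 calls (limma, 0% of all rows), and 1 member, Col5a3, had an unadjusted p under 0.05 there (1.79, SE 0.55, limma adjusted p = 0.9995), as did 0.827% of all rows. Serpinh1 did not differ with the FUBP1 label beyond its spread (0.31, SE 0.25, limma adjusted p = 0.999).

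The NT libraries themselves were split by a set of collagen genes. In 6 of the 30 tested members the libraries GFP-D and GFP each lay more than 1 log2 unit below the other NT library of their state, against 1.55% of all rows, and in 3 they lay as far above it, against 2.04% of all rows. These members were picked by that gap, so it is given as a description with no test. Col5a2, the partner of Col5a1 in type V collagen, was at 0.235 FPKM in GFP-D, against 30.7 in 7, and at 0.223 FPKM in GFP, against 9.38 in TRC. It was at 24.7, 36.7, 10.1 and 22.4 FPKM in FUBP1-D, CIC-D, FUBP1 and CIC, so that GFP-D and GFP were the only libraries under 1 FPKM. Col5a1 had no such gap, and the ratio of Col5a1 to Col5a2 was 129 and 49.3 in GFP-D and GFP, against 0.667 to 1.43 in the other 6 libraries. Without both GFP libraries the change of Col5a2 on differentiation was 1.17 (adjusted p = 0.0179), and with them it was 0.88 (0.523, or 0.0408 with library name as a block).

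Col11a1, a fibrillar chain that co-assembles with type V chains, was at 0.785 FPKM in GFP-D, against 9.004 in 7, and at 0.787 FPKM in GFP, against 5.78 in TRC. Leprel1 was at 0.247 FPKM in GFP-D, against 5.15 in 7, and at 0.403 FPKM in GFP, against 5.07 in TRC. Col8a1, a short network-forming chain, was at 0.0426 FPKM in GFP-D, against 2.16 in 7, and at 0.0205 FPKM in GFP, against 2.70 in TRC. The members higher in both were Pcolce (10.1 FPKM in GFP-D, against 0.916 in 7, and 13.3 in GFP, against 1.44 in TRC), Loxl3 and Col9a3. The standard error in the CIC comparison was 1.27 for Col5a2 and 1.09 for Col4a1, against 0.25 for Serpinh1, which the NT libraries did not split. The fibroblast and mesenchyme marker Pdgfrb was also split, at 5.59 FPKM in GFP-D, against 0 in 7, and at 0.407 FPKM in GFP, against 0 in TRC, and its part in the result was not tested.

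Col4a1 and Col4a2, the major chains of type IV collagen, whose loci lie head to head 2 bases apart in the table (chromosome 8, 11198423 to 11312826 and 11312829 to 11449287), were low in both the CIC and the GFP libraries. Col4a1 stood at 29.99, 0.0283, 12.1 and 0.180 FPKM in FUBP1-D, CIC-D, 7 and GFP-D, and at 5.43, 0, 7.88 and 0.351 FPKM in FUBP1, CIC, TRC and GFP. Col4a2 stood at 9.85, 0.124, 4.92 and 0.0602 FPKM in the differentiating libraries, in the same order, and at 1.87, 0, 2.65 and 0.114 FPKM in the proliferating ones. The 2 genes thus separated the libraries in the same way, and in the 6 libraries other than CIC-D and CIC the ratio of Col4a1 to Col4a2 lay between 2.47 and 3.09. Col4a1 was lower in each CIC library than in both NT libraries of its state, and the NT libraries themselves ran from 0.180 to 12.1 FPKM. The CIC difference was not called for either gene (Col4a1 -1.86, SE 1.09, limma adjusted p = 0.530, and Col4a2 -1.08, SE 0.78, 0.604). Col4a5 and Col4a6, the other head-to-head pair, did not follow them, since their lowest value was 31.3 FPKM (Col4a6 in CIC).

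**Figure D5:**
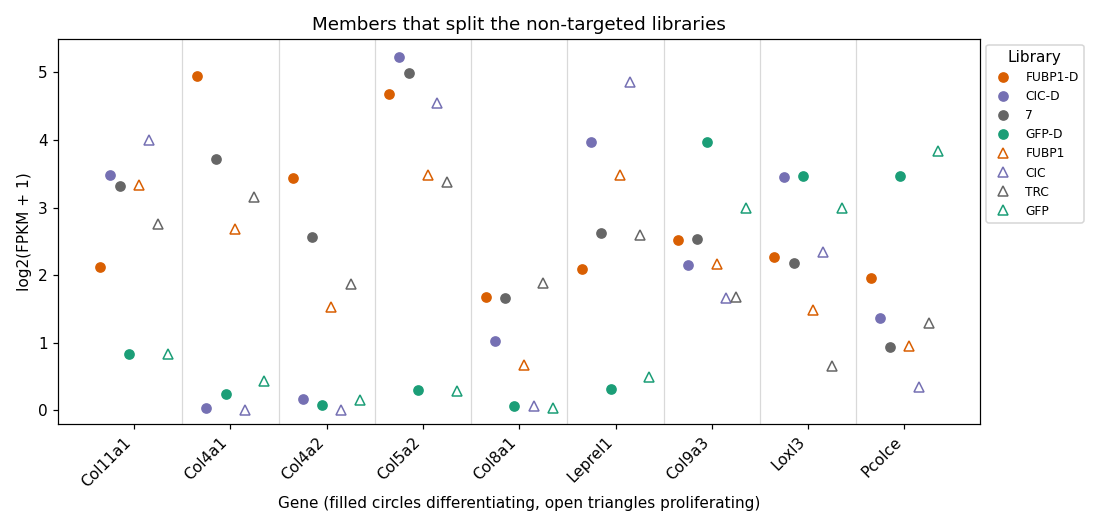
Level of the 9 members in which GFP-D and GFP (green) each lay more than 1 log2 unit from the other NT library of their state (7 and TRC, grey), as log2(FPKM + 1), 1 point per library. The green points lie below the grey ones for Col11a1, Col4a1, Col4a2, Col5a2, Col8a1 and Leprel1 and above them for Col9a3, Loxl3 and Pcolce, and for Col4a1 and Col4a2 the CIC points (purple) are as low as the green ones.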

How the data were processed

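The data are 1 table of FPKM values that the authors deposited, with 1 value per gene and library and 20793 rows. The build mm9 and the tools TopHat2 2.0.11, Cufflinks 2.1.1, bcl2fastq 2.17 and cutadapt are named in the submitters' processing notes. Order, settings, annotation and use of strand: not given in the sources used here. Gene positions are the table's mm9 coordinates, counted from 1, and upstream sequences are RefSeq's in GRCm38.p6, matched by symbol.

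The deposited FPKM were put on the scale log2(FPKM + 1). The 11968 rows that reached 1 FPKM in 2 libraries were tested with limma 3.58.1 in R 4.3.3 (mean-variance trend, two-sided, Benjamini-Hochberg over all rows, threshold 0.05), after a test on simulated data. For CIC, FUBP1 and state, an additive model with terms for state and for targeted gene was fitted to all 8 libraries (4 residual degrees of freedom). This model takes libraries of 1 name in both states as independent. NT differentiation and differences between states came from 6 group means (2 residual degrees of freedom, from the NT pairs), which assumes that single libraries scatter as the NT ones do. A log2 change on this scale understates that of low genes. Members reaching 10 FPKM, called members, Serpinh1 with 3 neighbouring rows a side, and called genes of a list of 47 other pathway genes (46 in the table) were to be named. Alternatives covered pseudocount, filter, scaling, model, each library left out and, chosen after seeing the data, both GFP libraries left out or library name as a block. The members and lists were chosen with earlier results of these data known.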

Additional observations from a re-analysis of the deposited data

How the results depend on the processing

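Serpinh1 kept its call in the CIC comparison under every alternative run, and in the FUBP1 comparison 0 members were called in each. The number of all rows called between CIC and NT, 13 in the main analysis, was 35 with a pseudocount of 0.1 FPKM, 4 with 5 FPKM, 2 without the filter, 1 with group means and 3 without both GFP-D and GFP (an alternative chosen after seeing the data), and between 2 and 18 with 1 library left out. For differentiation, 9 members were called, against 5 with quantile normalization, 4 with group means and 5 to 9 with 1 library left out. Over all rows 4647 were called, against 2906 with group means and 2477 to 4857 with 1 library left out. Within NT libraries 0 members were called in every alternative, while the count over all rows, 175, was 0 with a pseudocount of 5 FPKM, 0 without the filter, 277 with quantile normalization and 0 to 442 with 1 library left out (0 without 7, TRC or GFP-D, 442 without GFP). Values that changed sign were called in neither setting. The change of Serpinh1 on differentiation was 0.036 with quantile normalization, 0.032 with group means and -0.28 to 0.040 with 1 library left out, its FUBP1 difference was -0.078 to 0.71 with 1 library left out, and the change of Col5a2 on differentiation was -0.044 to 1.83. The cause was not tested. The labels give no replicate numbers, but FUBP1, CIC and GFP each name a library in both states. A fit with library name as a replicate block (TRC and 7 together as the fourth block, NT as the mean of its blocks, 3 residual degrees of freedom), chosen after seeing the data, called 3 members and 92 of all rows between CIC and NT. It called 14 members for differentiation, the 9 of the fit without the block plus Col5a2, Col6a2, Col6a3, Col9a3 and Loxl3. Of these 14, Col23a1, Col27a1 and Col6a2 passed the filter through the differentiating libraries alone. Nothing in the labels says that libraries of 1 name share a culture. The unknown depth leaves values near 0 without an interval.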

Other observations

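Some members that failed the filter on low values stood out in a single library. Col22a1, a chain of tissue junctions, was at 3.62 FPKM in FUBP1-D, against 0.508 in 7 and 1.00 in GFP-D, and at 0.0296 FPKM in CIC-D. Col9a2, a chain of the cartilage collagen type IX, was at 2.23 FPKM in CIC-D, against 0.0874 in 7 and 0.0433 in GFP-D. Its partner chain Col9a3 was expressed in every library, from 2.15 FPKM (CIC) to 14.7 FPKM (GFP-D), whereas Col9a1 did not exceed 0.0536 FPKM. Col3a1 was at 1.29 FPKM in CIC, against 0.239 in TRC and 0.0985 in GFP. Each of these is a value of 1 library, with no test.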
